A study of Macaca mulatta with 45 samples.

Results

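CCL2 encodes monocyte chemoattractant protein, a small secreted chemokine of the CC family. Its row in the table of gene counts, ENSMMUG00000000288, was 1 of 30246 gene IDs, and it was followed across 9 groups of rhesus macaque brain tissue. The gene was chosen by its levels and fold changes in these same libraries, so these values are given as a description, with no test. Neither the strand setting of the counting nor the genome build is given in the sources used here, and the row is therefore placed by its symbol only. In the RefSeq table of the assembly T2T-MMU8v2.0, the chemokine genes that follow CCL2 in order are CCL7, CCL11, CCL8, CCL13 and CCL1.

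CCL2 draws monocytes, and some T cells, along its gradient by binding the receptor CCR2. In the brain it is made by astrocytes, microglia and macrophages, and endothelial cells, mostly after induction by cytokines such as TNF and interleukin-1 through NF-kB and AP-1. The atypical receptor ACKR1 binds CCL2 on vessel walls and red cells without signalling through G proteins. CCL7, CCL8 and CCL13 are related chemokines that also bind CCR2.

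Total RNA was sequenced after removal of ribosomal RNA from 3 regions of 15 animals, 1 library per animal and region. In the fWBI group, 5 animals were given 40 Gy to the whole brain as 8 fractions of 5 Gy and were necropsied 12 months later. In the TBI group, 5 animals were exposed once over the entire body and were necropsied 6 to 9 years later. The dose was 6.75 Gy in 2 of these animals, 7.2 Gy in 2 and 8.05 Gy in 1. The 5 control animals were not unirradiated: each was exposed to 10 Gy at the chest, and the labels put the dose to the brain at 0.1 Gy. The irradiation groups thus differed from each other in dose, fractionation, body volume and time since exposure together. The regions were deep white matter of the centrum semiovale, hippocampus, and prefrontal cortex of Brodmann area 46. All animals had been perfused with saline before the brain was removed, and the labels give no ages.

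The 45 libraries held 6625435 to 12541507 counts. Myelin genes averaged 10.2 to 11.3 on a log2 scale of counts per 1000000 library counts (CPM) in white matter libraries and stayed at or under 8.32 in the other regions. Pan-neuronal genes averaged 4.40 to 5.46 in 13 white matter libraries, against 8.21 to 8.94 in hippocampus and prefrontal cortex. Control white matter libraries 1 and 3 stood apart, with pan-neuronal means of 8.42 and 7.40, so they held more neuronal RNA than the other white matter libraries. Genes of hippocampal identity summed to 104 to 227 CPM in hippocampus, against 40.2 to 135 CPM in the other regions.

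CCL2 was high in every white matter library of fWBI animals and intermediate in every one of TBI animals. The fWBI white matter libraries, in order of animal number, held 42.8, 96.2, 66.0, 68.3 and 41.7 CPM of CCL2. The TBI white matter libraries held 4.47, 7.05, 8.04, 5.34 and 9.88 CPM. The control white matter libraries held 1.32, 2.67, 1.29, 2.46 and 2.38 CPM. No value of one group reached into another: the lowest fWBI library was 4.22 times the highest TBI library, and the lowest TBI library was 1.68 times the highest control library.

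The raw counts behind the white matter levels were 457, 937, 651, 687 and 492 in fWBI animals. They were 38, 56, 87, 42 and 93 in TBI animals and 12, 24, 13, 20 and 22 in controls. The counting error was small beside the gaps for fWBI libraries, whose lowest level had an exact Poisson 95% interval of 38.1 to 45.5 CPM. It was larger between TBI and control libraries: the lowest TBI level had an interval of 3.16 to 6.13 CPM, and the highest control level one of 1.71 to 3.97 CPM. These intervals cover counting error only.

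White matter CCL2 averaged 63.0 ± 22.4 CPM in fWBI animals, 6.96 ± 2.15 CPM in TBI animals and 2.02 ± 0.663 CPM in controls (SD, n = 5 each). The fWBI mean was thus 31.2 times the control mean and 9.06 times the TBI mean, and the TBI mean was 3.44 times the control mean. In edgeR's fit of the 15 white matter libraries, the log2 fold change of CCL2 was 4.96 ± 0.31 (SE) in fWBI against control and 1.79 ± 0.31 in TBI against control. Both fold changes share the same 5 control libraries. The spread within a group was alike on the log2 scale: the SD of log2 CPM was 0.51 in fWBI, 0.44 in TBI and 0.46 in control white matter.

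**Figure D1:**
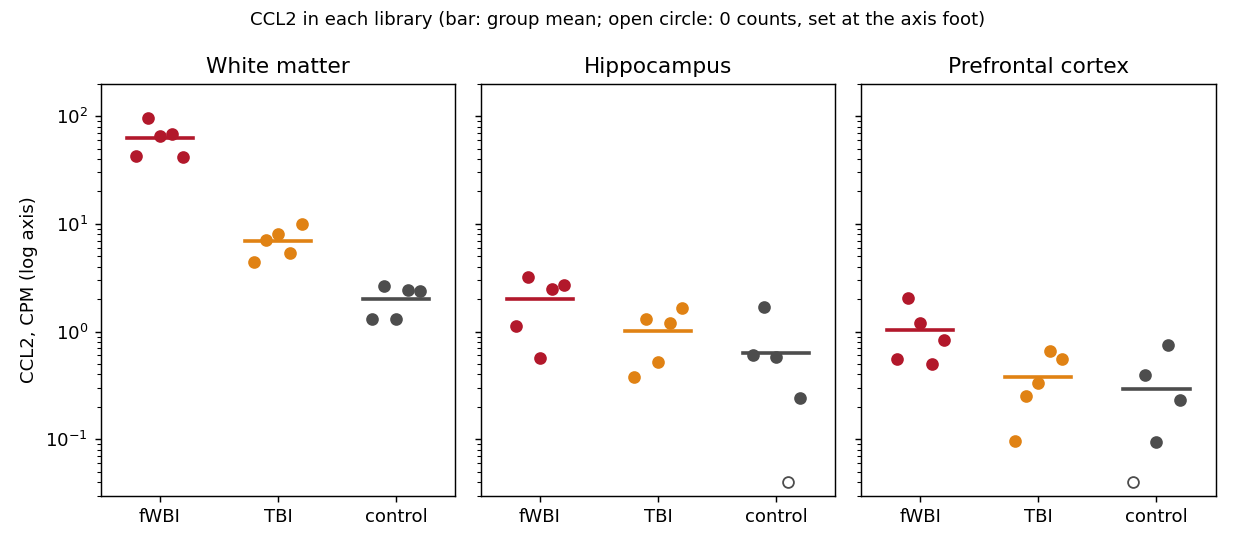
CCL2 in each of the 45 libraries, in CPM on a log axis, by region and irradiation group; bars are group means of 5 libraries and open circles are libraries with 0 counts. The 3 white matter groups do not overlap, while the groups within hippocampus and within prefrontal cortex do.

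Few genes had a larger fold change. Of 15235 genes fitted in white matter, 21 had a larger log2 fold change than CCL2 in fWBI against control, or 0.138% of them. In TBI against control 28 were larger, or 0.184%. Just above CCL2 in the fWBI ranking stood CPVL, a carboxypeptidase-like gene of myeloid cells, at 5.02 ± 0.43, and just below it SLAMF7, a receptor of lymphocytes and macrophages, at 4.95 ± 0.61. The SE of CCL2 was smaller than that of either neighbour.

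The 2 control libraries rich in neuronal RNA also had the lowest control CCL2, 1.32 and 1.29 CPM, against 2.38 to 2.67 CPM in the other 3. Without them the log2 fold change in white matter was 4.67 in fWBI and 1.48 in TBI against control. With the pan-neuronal mean as a covariate it was 4.64 in fWBI and 1.51 in TBI. In bulk tissue a change in the number of CCL2-making cells cannot be told apart from a change in CCL2 RNA per cell.

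Hippocampal CCL2 was low in all groups. It stood at 1.14, 3.20, 0.573, 2.49 and 2.69 CPM in fWBI animals, from 13, 27, 5, 31 and 29 counts. It stood at 0.381, 1.32, 0.521, 1.21 and 1.64 CPM in TBI animals and at 0.609, 1.70, 0.587, 0 and 0.240 CPM in controls. The fWBI libraries of animals 2, 4 and 5 lay above every control, whereas those of animals 1 and 3 lay within the control range. The mean was 2.02 ± 1.11 CPM in fWBI animals, 1.01 ± 0.540 CPM in TBI animals and 0.627 ± 0.651 CPM in controls (SD, n = 5 each). The log2 fold change was 1.63 ± 0.61 (SE) in fWBI and 0.64 ± 0.65 in TBI against control.

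The control hippocampus with no CCL2 read, that of animal 4, has a floor of 0.407 CPM, the level of 3 counts; its exact 95% interval ends at 0.501 CPM. The highest control hippocampus, that of animal 2, weighed on the result. Without it the log2 fold change was 2.38 in fWBI and 1.40 in TBI against control.

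Prefrontal CCL2 was at the limit of the depth. The fWBI libraries held 6, 22, 13, 5 and 8 counts, or 0.557, 2.06, 1.19, 0.505 and 0.837 CPM. The TBI libraries held 1, 2, 3, 8 and 6 counts, or 0.0958, 0.250, 0.334, 0.662 and 0.561 CPM. The control libraries held 0, 4, 1, 5 and 2 counts, or 0, 0.394, 0.0949, 0.750 and 0.231 CPM. The library of fWBI animal 2 stood highest, and the groups overlapped: 3 of 5 fWBI libraries were above the highest control, which was at 0.750 CPM. CCL2 did not pass edgeR's filter on low counts in this region. In the fit of 25904 genes without the filter its log2 fold change was 1.89 ± 0.60 (SE) in fWBI and 0.52 ± 0.68 in TBI against control.

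Ordered by mean level, white matter came first in fWBI, then TBI, then control animals, the last with nearly the same mean as fWBI hippocampus. Then came fWBI prefrontal cortex at 1.03 CPM, TBI hippocampus at 1.01 CPM, control hippocampus, TBI prefrontal cortex at 0.381 CPM and control prefrontal cortex at 0.294 CPM. From control white matter downward, the range of each group overlapped that of the next in the order. Differences between these neighbours were not tested, and groups of the same irradiation share animals.

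Within animals white matter was always the highest region, whereas the order of the other regions was less steady. Hippocampus held more CCL2 than prefrontal cortex in 4 of 5 fWBI, 5 of 5 TBI and 4 of 5 control animals. White matter held the most CCL2 of the 3 regions in 5 of 5 fWBI, 5 of 5 TBI and 5 of 5 control animals. The level in white matter was 15.5 to 115 times that in the hippocampus of the same fWBI animal. In TBI animals it was 4.42 to 15.4 times, and in the 4 control animals with hippocampal reads it was 1.57 to 9.89 times. White matter stood at 46.7 to 135 times prefrontal cortex in fWBI animals, 8.06 to 46.7 times in TBI animals and 3.27 to 13.6 times in 4 control animals. The fWBI ratios to hippocampus all lay above the highest TBI ratio, which was close to the lowest of them. The ratios to prefrontal cortex overlapped: it was 46.67 in TBI animal 1, which had 1 prefrontal count, and 46.66 in fWBI animal 2.

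The fWBI fold change of CCL2 was thus larger in white matter. In the fit of all 45 libraries, with a term for each animal, the log2 fold change of fWBI against control in white matter exceeded that in prefrontal cortex by 3.07 ± 0.85 (SE) and that in hippocampus by 3.29 ± 0.62. The difference from hippocampus was 2.74 without control animal 2.

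Some animals kept their rank across regions and others did not. The fWBI animal with the most CCL2 in white matter, animal 2, had the most in hippocampus and prefrontal cortex too. The fWBI animal with the least in white matter, animal 5, was the second highest of its group in hippocampus, and fWBI animal 4, the second highest in white matter, was the lowest in prefrontal cortex. Among TBI animals, the one given 8.05 Gy had the most in white matter and hippocampus. Control animal 4 had the most of its group in prefrontal cortex and the least in hippocampus. The white matter levels by rising dose were 4.47 and 7.05 CPM at 6.75 Gy, 8.04 and 5.34 CPM at 7.2 Gy and 9.88 CPM at 8.05 Gy. With 5 animals and overlapping levels at the 2 lower doses, no trend with dose was tested.

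Of the related CCR2 ligands, CCL7 and CCL8 were higher in fWBI white matter as well. CCL7, its nearest neighbour, had 8, 28, 29, 22 and 19 counts in fWBI white matter, 2, 3, 1, 0 and 0 in TBI white matter and 0, 0, 0, 1 and 0 in control white matter. Every fWBI library thus exceeded every TBI and control library. The summed count was 106 in fWBI and 1 in control white matter, a ratio of 92.6 per library size with an exact 95% counting interval of 16.3 to 3693. This interval pools the animals of a group, leaves out the spread between them and rests on 1 control read. CCL7 did not pass the filter in any region and was not tested. It had at most 2 counts in any library of hippocampus or prefrontal cortex.

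CCL8, also called MCP-2, was at 20.6, 5.96, 2.33, 1.99 and 2.71 CPM in fWBI white matter. It was at 0.588, 2.01, 2.22, 0.381 and 2.34 CPM in TBI and at 0.110, 0.111, 0.398, 2.09 and 0.864 CPM in control white matter. The library of fWBI animal 1 stood far above the others, while that animal had one of the 2 lowest CCL2 levels of its group. CCL8 rose in fWBI white matter by a log2 fold change of 3.25 ± 0.82 (SE, edgeR adjusted p = 0.0128), and by 2.21 without animal 1 (adjusted p = 0.0452). This call was lost without control libraries 1 and 3 (2.75, adjusted p = 0.083) and with the pan-neuronal covariate (2.89, adjusted p = 0.0518).

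Unlike CCL2, CCL8 was as high in the other regions of fWBI animals as in most of their white matter. In fWBI hippocampus it was at 1.92, 5.93, 2.75, 2.57 and 2.41 CPM, all above the highest control hippocampus at 1.10 CPM. It rose there by 2.44 ± 0.48 (edgeR adjusted p = 0.0209), a call lost without fWBI animal 2 or without control animals 3, 4 or 5 (highest adjusted p = 0.0667). In fWBI prefrontal cortex it was at 1.46 to 2.81 CPM, all above the highest control at 1.35 CPM, with a log2 fold change of 2.30 ± 0.55 (edgeR adjusted p = 0.0538). The fWBI effect on CCL8 in white matter exceeded that in prefrontal cortex by 0.69 ± 0.95 (adjusted p = 0.726) and that in hippocampus by 0.67 ± 0.88 (adjusted p = 0.75). Without fWBI animal 1 both differences turned negative, at -0.11 and -0.15. In TBI white matter the log2 fold change of CCL8 was 1.12 ± 0.86 (adjusted p = 0.533).

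CCL13, also called MCP-4, had at most 3 counts in any white matter library and at most 12 in any library, and was not tested. CCL11, or eotaxin-1, had no row that could be matched by symbol.

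The receptors, a list that holds CCL2 receptors and related ones, were measured in part. No row matched CCR2, ACKR2 or ACKR4 by symbol, so the main CCL2 receptor is not analysed here. CCR4, a T cell receptor reported to bind CCL2, had at most 3 counts in any library. CCRL2, a non-signalling receptor of myeloid and endothelial cells that presents chemerin, was at 4.12, 2.57, 2.74, 5.37 and 2.46 CPM in fWBI white matter. It was at 0.755 to 1.94 CPM in TBI and 0.548 to 1.35 CPM in control white matter, so the fWBI libraries stood above both. CCRL2 rose by 1.73 ± 0.32 in fWBI white matter (edgeR adjusted p = 0.00148). Its fWBI effect was larger in white matter than in hippocampus by 1.91 ± 0.50 (adjusted p = 0.0151, or 0.0588 without fWBI animal 4).

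ACKR1 had another pattern, highest in TBI libraries. In white matter it was at 2.24, 1.13, 4.07, 5.97 and 9.88 CPM in TBI animals, against 0.987, 2.11, 0.498, 0.614 and 0 CPM in controls. In prefrontal cortex it was at 3.74, 13.4, 4.79, 4.72 and 13.9 CPM in TBI animals, all above the 1.99 to 3.35 CPM of controls. In hippocampus it was at 3.54 to 7.43 CPM in TBI animals and 1.32 to 4.76 CPM in controls. None of these passed the threshold: the log2 fold change in TBI was 2.45 ± 0.73 in white matter (edgeR adjusted p = 0.14), 1.54 ± 0.36 in prefrontal cortex (adjusted p = 0.116) and 1.02 ± 0.34 in hippocampus (adjusted p = 0.359). In fWBI white matter it was 1.45 ± 0.74 (adjusted p = 0.21).

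Few other chemokines could be tested. Of 20 other CC chemokines listed, 9 had an ID and 1 passed the filter in white matter, and of 18 CXC, CX3C and XC chemokines listed, 6 had an ID and 4 passed. Those with no matched ID, among them CCL3, CCL4, CCL5 and CXCL8, are not analysed here. Counts of list members are set beside the share over all genes: in fWBI against control white matter, edgeR called 2537 of 15235 genes at an adjusted p under 0.05, which is 16.7%, with 8.8% higher and 7.86% lower. Of the 4 tested CXC, CX3C and XC chemokines, CXCL10 and CXCL16 rose in fWBI. CXCL10, which draws activated T cells through CXCR3, was at 14.6, 10.4, 4.16, 4.87 and 4.07 CPM in fWBI white matter. It was at 4.70, 9.19, 4.81, 2.42 and 5.42 CPM in TBI and 0.658, 0.556, 1.49, 2.21 and 1.40 CPM in control white matter. Both irradiated groups stood above every control, and they overlapped each other, unlike for CCL2. The log2 fold change was 2.59 ± 0.47 in fWBI (edgeR adjusted p = 0.00129) and 2.06 ± 0.47 in TBI (adjusted p = 0.12).

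CXCL10 also rose in fWBI hippocampus, by 2.19 ± 0.43 (edgeR adjusted p = 0.0209), a call lost without fWBI animal 3 or control animals 1, 4 or 5 (highest adjusted p = 0.073). In TBI hippocampus its log2 fold change was 1.67 ± 0.45 (adjusted p = 0.328). Its fWBI effect in white matter exceeded that in prefrontal cortex by 1.98 ± 0.70 (adjusted p = 0.0699) and that in hippocampus by 0.33 ± 0.83 (adjusted p = 0.886).

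CXCL16, a membrane-bound chemokine and scavenger receptor of macrophages, was at 13.9 to 27.2 CPM in fWBI, 12.3 to 21.6 CPM in TBI and 8.44 to 11.3 CPM in control white matter. Every library of the irradiated groups stood above every control. CXCL16 rose by 1.15 ± 0.19 in fWBI (edgeR adjusted p = 0.000593), and its log2 fold change in TBI was 0.67 ± 0.19 (adjusted p = 0.14). Its fWBI effect was larger in white matter than in prefrontal cortex by 1.22 ± 0.31 (adjusted p = 0.0107, or 0.0501 without fWBI animal 2). Against hippocampus the difference was 0.67 ± 0.29 (adjusted p = 0.164).

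CXCR4, the receptor of CXCL12 on leukocytes and microglia, was the 1 of 4 other chemokine receptors tested in white matter that rose in fWBI, where 8.8% of all genes were higher. It was at 47.0, 111, 58.8, 113 and 22.0 CPM in fWBI white matter, against 5.95 to 11.7 CPM in TBI and 5.26 to 13.1 CPM in control white matter. As with CCL2, fWBI animal 5 was the lowest of its group. The log2 fold change in fWBI was 2.88 ± 0.40 in white matter (edgeR adjusted p = 0.000153), 1.29 ± 0.22 in prefrontal cortex (adjusted p = 0.00905) and 1.01 ± 0.27 in hippocampus (adjusted p = 0.123). The effect in white matter exceeded that in hippocampus by 1.78 ± 0.46 (adjusted p = 0.0135). That call was lost without control animals 1 or 3 or without fWBI animal 2 (highest adjusted p = 0.062). Against prefrontal cortex the difference was 1.47 ± 0.49 (adjusted p = 0.0549).

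**Figure D2:**
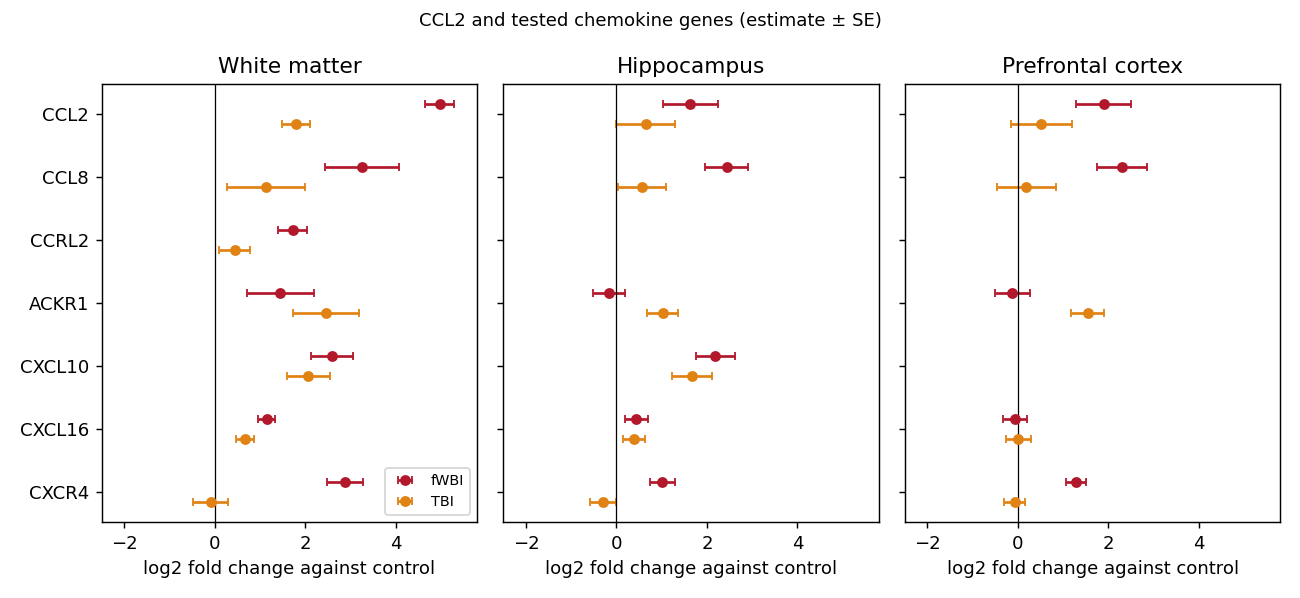
Log2 fold change against control, with its SE, of CCL2 and of chemokine and receptor genes that passed the filter, in fWBI (upper point) and TBI (lower point) by region; all points of a region share its 5 control libraries. CCL2 in prefrontal cortex is from the fit without the filter, and missing points are genes that did not pass the filter. CCL2 in fWBI white matter has the highest value, 4.96, and ACKR1 is the gene whose TBI point lies above its fWBI point in every region.

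The genes that act upstream of CCL2 were measured in part. TNF, IL1A, IL1B and IFNG, the best known cytokine inducers, and the AP-1 subunits JUN, JUND and FOS had no matched ID and are not analysed here. In fWBI white matter, of 15 tested cytokines that induce CCL2 and their receptors, 7 rose and 1, IL1RAP, fell. The median log2 fold change was 0.60, beside -0.03 over all genes tested. TLR2, a receptor of microbial and damage signals, rose by 2.25 ± 0.24 (edgeR adjusted p = 1.39e-05). TNFSF12, the cytokine TWEAK, rose by 1.48 ± 0.15 (adjusted p = 1.26e-05). OSMR, the oncostatin M receptor, rose by 1.35 ± 0.18 (adjusted p = 0.00011), and the TNF receptor TNFRSF1A by 1.18 ± 0.18 (adjusted p = 0.000315). IL17A and CSF2, 2 known inducers, had no count in any white matter library.

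Of 13 tested genes of the NF-kB pathway, 1 rose and none fell in fWBI white matter, with a median of 0.24. It was RELB, a subunit of the non-canonical pathway, at 0.96 ± 0.28 (edgeR adjusted p = 0.0257). This call was lost without fWBI animal 2 or control animal 1 (highest adjusted p = 0.0772). The DESeq2 test called 3 of the 13. Of 11 tested AP-1, STAT and C/EBP factors, 8 rose, with a median of 0.94. Among them STAT6, a mediator of interleukin-4 signals, rose by 1.46 ± 0.18 (edgeR adjusted p = 6.49e-05), and IRF1, an interferon-response factor, by 1.04 ± 0.18 (adjusted p = 0.00071). JUNB, an AP-1 subunit, rose by 0.94 ± 0.17 (adjusted p = 0.000954).

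Of 10 tested genes of leukocyte adhesion to vessels, the step after attraction by a chemokine, 7 rose and none fell, with a median of 1.39. ITGA4, the alpha chain of the integrin VLA-4 of monocytes and lymphocytes, rose by 3.05 ± 0.47 (edgeR adjusted p = 0.000379). Its ligand on endothelium, VCAM1, rose by 1.60 ± 0.25 (adjusted p = 0.000409). ITGAL, the alpha chain of LFA-1, rose by 2.13 ± 0.29 (adjusted p = 0.000144), and PECAM1, a junction protein of endothelium that leukocytes also carry, by 1.55 ± 0.17 (adjusted p = 1.9e-05). VCAM1 also rose in fWBI prefrontal cortex, by 1.50 ± 0.20 (adjusted p = 0.000915), where 1.15% of genes were called.

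Some marker lists of cell types that can make CCL2, or that follow it, moved with it in white matter and others did not, and their part in its level was not tested. The control libraries 1 and 3 bear on all of them: in fWBI against control white matter, 7 of 12 pan-neuronal genes were lower and none higher, with a median of -2.16. Without these 2 libraries 8 reactive astrocyte, 11 phagocyte, 3 perivascular macrophage and 7 adhesion genes passed as higher. Of 9 tested reactive astrocyte genes, 8 rose in fWBI, with a median of 2.64. The 10 genes with an ID summed to 7278 to 12960 CPM in fWBI, 3873 to 5537 CPM in TBI and 1923 to 3212 CPM in control white matter, and LCN2 had no count in any of these libraries. CD44, a hyaluronan receptor, rose by 2.11 ± 0.23 (edgeR adjusted p = 1.9e-05), and GFAP, the astrocyte filament protein, by 1.33 ± 0.21 (adjusted p = 0.000489). As for CCL2, these sums did not overlap between the 3 groups. The list of general astrocyte genes, which also holds GFAP, was split: of 8 tested, 2 rose and 2 fell, with a median of 0.26. SLC1A2, the main glutamate transporter of astrocytes, fell, with a log2 fold change of -2.25 ± 0.23 (adjusted p = 1.31e-05), and so did ALDOC, a glycolytic enzyme, at -0.77 ± 0.18 (adjusted p = 0.00732). Of 7 tested endothelial genes 2 rose and 1 fell, with a median of 0.28.

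Of 14 tested genes of activated and lipid-laden phagocytes, 11 rose in fWBI white matter and none fell, with a median of 1.78. The 15 genes with an ID summed to 4291 to 10670 CPM in fWBI, 3935 to 5614 CPM in TBI and 1681 to 4212 CPM in control white matter. TBI thus overlapped both other groups, while every fWBI library stood above every control, narrowly for the lowest. The scavenger receptor MSR1 rose by 3.91 ± 0.49 (edgeR adjusted p = 6.49e-05) and LGALS3, a lectin of activated phagocytes, by 2.92 ± 0.36 (adjusted p = 5.73e-05). Of 6 perivascular macrophage genes, 3 rose: SIGLEC1 by 4.08 ± 0.38 (adjusted p = 4.97e-06), F13A1 by 2.69 ± 0.33 (adjusted p = 5.14e-05) and CD163 by 2.40 ± 0.46 (adjusted p = 0.00212). The other 3 did not pass: STAB1 was at 1.10 ± 0.38 (adjusted p = 0.063), LYVE1 at 0.12 ± 0.44 (adjusted p = 0.908) and MRC1 at -0.16 ± 0.24 (adjusted p = 0.731). The list of these 6 genes summed to 202 to 364 CPM in fWBI, 114 to 242 CPM in TBI and 79.6 to 122 CPM in control white matter, and the sum does not describe each member. P2RY12, a receptor of resting microglia, had a log2 fold change of -1.36 ± 0.21 (adjusted p = 0.000393) and so fell, the 1 of 5 homeostatic microglia genes past the threshold.

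The cells that CCL2 attracts were covered less well. Of 7 tested genes of blood monocytes and neutrophils, 2 rose and 1 fell in fWBI white matter, with a median of -0.03. LYZ, the lysozyme of monocytes and macrophages, was at 189, 388, 434, 380 and 112 CPM in fWBI, 12.1 to 22.0 CPM in TBI and 5.58 to 19.3 CPM in control white matter. It rose by 4.75 ± 0.42 in fWBI (edgeR adjusted p = 3.42e-06), while in TBI its log2 fold change was 0.59 ± 0.39 (adjusted p = 0.456). CD14, the endotoxin co-receptor of monocytes and microglia, rose by 3.08 ± 0.37 (adjusted p = 4.34e-05). VCAN, a proteoglycan of monocytes that precursor cells of the brain also make, fell by 1.41 ± 0.21 (adjusted p = 0.000253). The list summed to 433 to 887 CPM in fWBI, 842 to 1162 CPM in TBI and 440 to 1157 CPM in control white matter. VCAN made up most of this sum in TBI and control libraries, with means of 933 and 821 CPM, against 308 CPM in fWBI, so the sum does not describe the other 8 genes. No list marker of this group was at 0 in all libraries of a white matter group.

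T cell genes summed to 98.9 to 147 CPM in fWBI, 49.5 to 70.4 CPM in TBI and 11.8 to 80.9 CPM in control white matter, and 0 of the 2 tested passed the threshold. These 2 went opposite ways in fWBI white matter, so the sum does not describe each member. CD4 had a log2 fold change of 1.82 ± 0.65 (edgeR adjusted p = 0.0692) and CD8A one of -0.38 ± 0.51 (adjusted p = 0.69). CD3E, of the same list, was not tested in the white matter fit but was in the fit of all 45 libraries. Its fWBI effect was larger in white matter than in prefrontal cortex by 2.90 ± 0.78 (edgeR adjusted p = 0.0159). Against hippocampus the difference was 2.18 ± 0.70 (adjusted p = 0.049), close to the threshold. Fits that left out animals are not given for CD3E. Senescence and secreted factors had 4 of 5 tested genes higher in fWBI white matter, with a median of 2.69. HGF, hepatocyte growth factor, rose by 2.83 ± 0.22 (edgeR adjusted p = 8.34e-07), and the cell cycle inhibitor CDKN2B by 2.69 ± 0.33 (adjusted p = 5.5e-05).

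**Figure D3:**
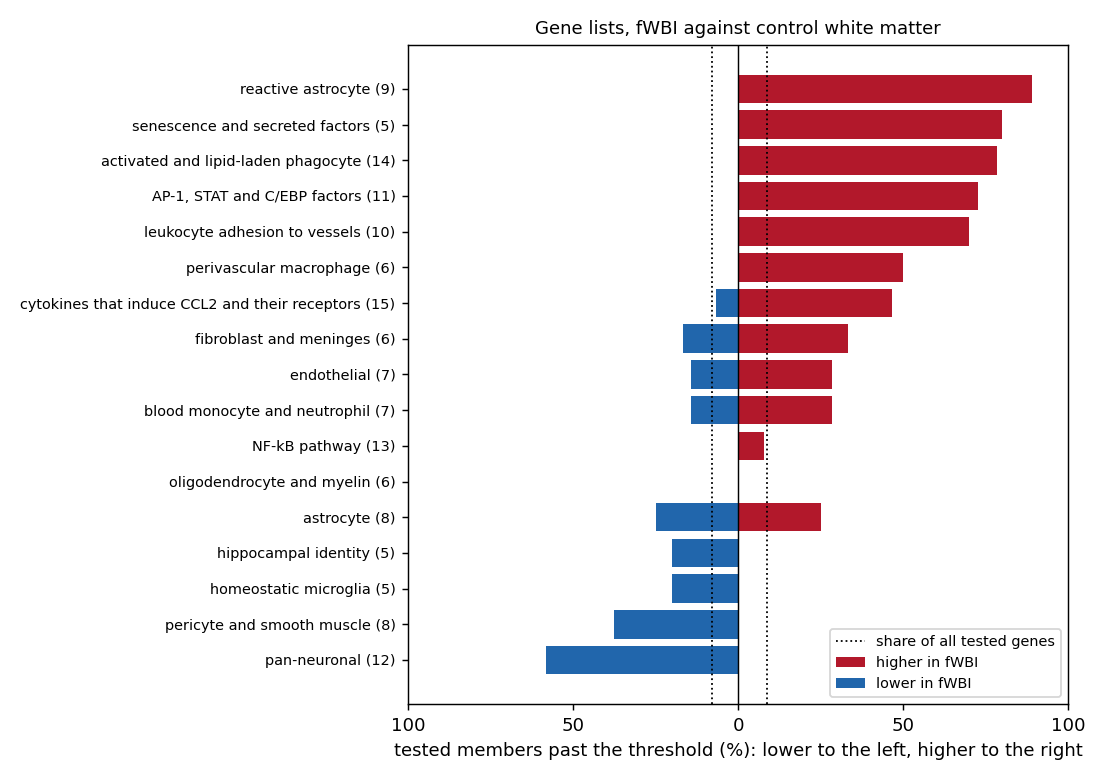
Share of the tested members of each gene list that were higher (right) or lower (left) in fWBI than in control white matter at an edgeR adjusted p under 0.05; the number tested, CCL2 left out, is in brackets, and lists with under 5 tested members are not drawn. Dotted lines are the shares over all 15235 genes, 8.8% higher and 7.86% lower; reactive astrocyte, phagocyte, transcription factor and adhesion lists lie far to the right, and the NF-kB list near the line.

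In the other regions, where the CCL2 levels were low and the groups overlapped, fewer genes passed, over all genes as well as in the lists. In fWBI hippocampus 111 of 15357 genes were called, or 0.723%, with 0.514% higher. In fWBI prefrontal cortex 179 of 15531 were called, with 0.798% higher. In hippocampus the count was 73 without fWBI animal 2, 70 without control animal 1 and 264 without control animal 2. In prefrontal cortex it was 94 to 107 without fWBI animals 1, 2 or 3, and 73 and 118 without control animals 3 and 5. No NF-kB gene and no AP-1, STAT or C/EBP factor was among the genes called. With so small a share called over all genes, none would be looked for in lists this short. Of 5 tested blood monocyte and neutrophil genes, 2 rose in hippocampus and none fell, and in prefrontal cortex 2 rose and 1 fell. LYZ rose by 2.27 ± 0.23 in hippocampus (edgeR adjusted p = 7.56e-05) and by 1.95 ± 0.27 in prefrontal cortex (adjusted p = 0.00128). CD14 rose by 2.31 ± 0.25 in hippocampus (adjusted p = 0.000188) and by 1.99 ± 0.29 in prefrontal cortex (adjusted p = 0.00258). Of 13 tested phagocyte genes, 3 rose in hippocampus and 2 in prefrontal cortex, and of 6 perivascular macrophage genes 3 and 2 did. In hippocampus MSR1 rose by 2.78 ± 0.29 (adjusted p = 0.000111) and SIGLEC1 by 1.95 ± 0.26 (adjusted p = 0.00131). Of 5 homeostatic microglia genes 2 fell in both regions. P2RY12 had a log2 fold change of -1.93 ± 0.17 in hippocampus (adjusted p = 1.97e-05) and -1.75 ± 0.18 in prefrontal cortex (adjusted p = 5.6e-05). SELPLG, which binds P-selectin and is carried by leukocytes and microglia, had one of -1.36 ± 0.21 in hippocampus (adjusted p = 0.00359) and -2.34 ± 0.22 in prefrontal cortex (adjusted p = 2.87e-05).

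The fWBI effect differed between white matter and the other regions for 1654 of 16614 genes against prefrontal cortex, or 9.96%, of which 4.56% were larger in white matter and 5.4% smaller. Against hippocampus it differed for 1488 genes, or 8.96%, with 4.13% larger and 4.83% smaller. Without fWBI animal 2 these counts were 1014 and 837, and without control animal 3 they were 1095 and 872. LYZ had a larger effect in white matter, by 2.79 ± 0.35 against prefrontal cortex (edgeR adjusted p = 3.16e-06) and 2.40 ± 0.33 against hippocampus (adjusted p = 2.44e-05). Of 15 tested phagocyte genes, 11 had a larger effect in white matter than in prefrontal cortex and 8 than in hippocampus. Of 12 AP-1, STAT and C/EBP factors, 6 and 3 did, with JUNB and STAT6 among those in both.

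The log2 fold change of CCL2 in TBI white matter, 1.79, stood against a background of few calls. In TBI against control white matter edgeR called 11 of 15235 genes, or 0.0722%: 0.0656% were higher and 0.00656% lower. With CCL2 left out of the count, 0 members of the 24 lists were among them. The median over the tested members was 0.70 for reactive astrocyte genes, 0.70 for phagocyte genes and 0.17 for NF-kB genes, beside -0.01 over all genes tested. In TBI hippocampus and TBI prefrontal cortex edgeR called 0 genes, which is 0%. At an unadjusted p under 0.05 there were 1634 genes in hippocampus and 1819 in prefrontal cortex, and the DESeq2 test called 63 and 254. The count in white matter was unsteady: the DESeq2 test called 733 genes, and a fit of all 45 libraries by group called 1738. That fit had no term for the animal, so it treated the 3 regions of an animal as independent. Fits that left out 1 TBI or control library called 0 to 25. The count was 0 without TBI animals 1 or 3 or control animals 1 or 3, and 25 without control animal 2.

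The genes whose levels were most like that of CCL2 over the 45 libraries were sought among 11448 genes with a symbol and a mean of at least 1 CPM. Likeness was Pearson's r of log2 CPM, which is a description across 9 groups of unequal level that share animals and libraries. The 95th percentile of r over these genes was 0.794. CYBB, the catalytic subunit of the phagocyte NADPH oxidase, was first with r = 0.96. S100A6, a calcium-binding protein, followed with 0.95, then ACSL5, which activates fatty acids, FAM111A, a protease, GBP3, an interferon-induced GTPase, FCER1G, an Fc receptor chain, CD68, a lysosomal protein of phagocytes, and CAPG, an actin-capping protein, at 0.93 to 0.94.

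CYBB was at 163, 232, 161, 273 and 103 CPM in fWBI white matter, against 42.4 to 63.8 CPM in TBI and 24.3 to 39.5 CPM in control white matter. The 3 groups did not overlap, and they had the order seen for CCL2. Its log2 fold change was smaller than that of CCL2: 2.60 ± 0.23 in fWBI (edgeR adjusted p = 3.29e-06) and 0.73 ± 0.22 in TBI (adjusted p = 0.14). CYBB also rose in fWBI prefrontal cortex, by 1.11 ± 0.17 (adjusted p = 0.0031), and in fWBI hippocampus, by 1.02 ± 0.21 (adjusted p = 0.0327). Its fWBI effect was larger in white matter than in prefrontal cortex by 1.49 ± 0.31 (adjusted p = 0.00205) and than in hippocampus by 1.54 ± 0.30 (adjusted p = 0.0013).

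**Figure D4:**
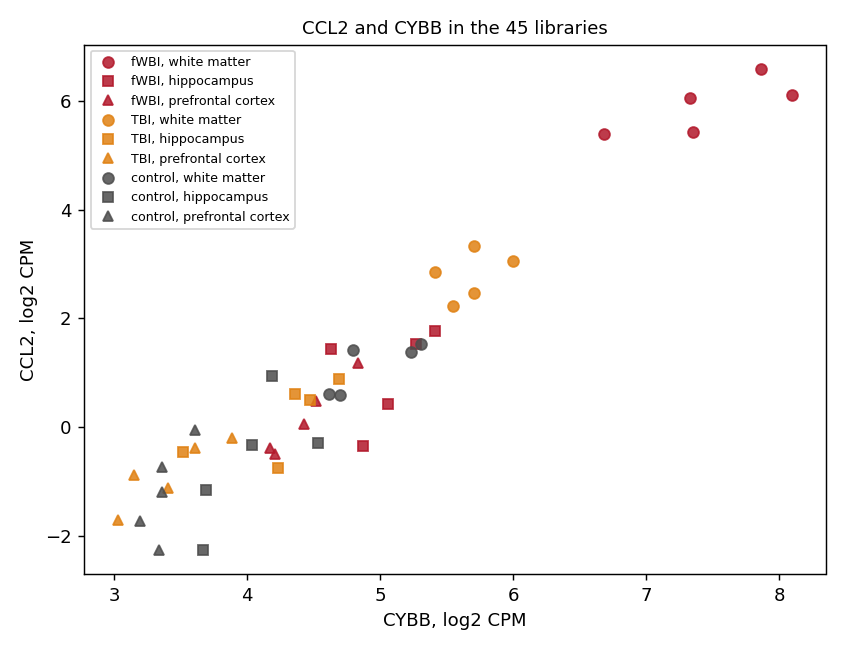
Log2 CPM of CCL2 against log2 CPM of CYBB in the 45 libraries, with colour for irradiation group and shape for region. The fWBI white matter libraries form the upper right, the TBI white matter libraries lie between them and the rest, and r over all 45 libraries is 0.96.

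All 8 of these genes had higher values in fWBI white matter and passed the threshold there, from FAM111A at 1.19 ± 0.20 (edgeR adjusted p = 0.000581) to CD68 at 3.70 ± 0.39 (adjusted p = 1.59e-05). They were chosen for following CCL2 in these libraries, so this is no independent evidence. GBP3 was at 45.2 to 59.1 CPM in fWBI, 25.6 to 35.3 CPM in TBI and 13.6 to 22.6 CPM in control white matter, with 3 groups that did not overlap. In TBI white matter its log2 fold change was 0.86 ± 0.14 (edgeR adjusted p = 0.031), a call lost in 9 of 10 fits that left out 1 library, all but that without control animal 2 (highest adjusted p = 0.117).

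Likeness was also sought within groups, from the deviations of each library from the mean of its group, where the 95th percentile of r was 0.455. CCL2 deviated most in hippocampus and prefrontal cortex, where the SD of its log2 CPM was 0.61 to 1.18, against 0.44 to 0.51 in white matter. It had at most 31 counts in any library of these 2 regions, so counting error is part of these deviations and limits r. GPX1, the main cytosolic glutathione peroxidase, was first with r = 0.70. It was followed closely by DDX39A, PBX2, FGF7, FCGRT, NPC2, GALNT1 and GSTP1 at 0.68 to 0.70, a range too narrow to rank them. Of the first 8 genes over all libraries, CYBB had r = 0.63 and CAPG 0.30 within groups. GPX1 was at 109 to 246 CPM in fWBI, 37.2 to 60.2 CPM in TBI and 14.8 to 23.5 CPM in control white matter, again with no overlap.

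Among the chemokine and receptor genes, r with CCL2 over the 45 libraries was 0.91 for CXCR4, 0.84 for CXCL16, 0.83 for CXCL10, 0.75 for CCRL2, 0.65 for CCL8 and -0.17 for ACKR1. Within groups r was lower for the first 5 of these, at 0.35 for CXCR4, 0.13 for CXCL16, 0.13 for CXCL10, 0.26 for CCRL2 and 0.39 for CCL8, all under the 95th percentile of 0.455. These values describe libraries that share animals, and the libraries fall into 9 groups of unequal CCL2 level. The values within groups also carry the counting error of the low CCL2 counts in hippocampus and prefrontal cortex. A low r within groups therefore does not show that a gene varied apart from CCL2.

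The log2 fold change of GPX1 was 3.29 ± 0.24 in fWBI (edgeR adjusted p = 4.09e-07) and 1.40 ± 0.22 in TBI white matter (adjusted p = 0.0301). The TBI call was lost in 8 of 10 fits that left out 1 library, all but those without TBI animal 2 or control animal 2 (highest adjusted p = 0.117). NPC2, a lysosomal cholesterol carrier, rose by 1.30 ± 0.20 in fWBI white matter (adjusted p = 0.000379), and GSTP1, a glutathione transferase, by 0.59 ± 0.14 (adjusted p = 0.00881). DDX39A, PBX2, FGF7 and GALNT1 did not pass the threshold there, with log2 fold changes of 0.20, 0.05, 0.49 and 0.14 (adjusted p = 0.37, 0.772, 0.209 and 0.474).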

How the data were processed

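Per the labels, total RNA from 45 tissue samples was depleted of ribosomal RNA and sequenced with a stranded kit. The deposited table gives, for every gene, the raw read count in each library. FastQC, STAR, featureCounts and DESeq2 are named without versions, per the submitters' processing notes; neither the build and annotation nor the strand setting is given there or in the labels, so reads of overlapping genes on opposite strands may not be told apart. Of 30246 gene IDs, 15769 had a symbol, and 202 of the 281 symbols of the 24 gene lists matched an ID.

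CPM used TMM-scaled library sizes; log2 CPM used a prior count of 2. Each irradiation group was compared with control on the 15 libraries of a region with the quasi-likelihood test of edgeR (version 4.0.16 under R 4.3.3) and its default filter. Differences between regions were tested on the 45 libraries in a model with a term for each animal. P-values are two-sided, adjusted by Benjamini-Hochberg over all genes of a comparison, with a threshold of 0.05. Libraries of the same animal deviated together (median r = 0.288, 41 of 45 pairs above 0.1); the labels give this pairing. The smallest chi-square per gene within a group was 6.49, so all libraries were counted separately. The fits of fWBI against control within a region were also run on simulated counts, with an outcome that is not given here. The model with a term for each animal was not run on them.

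CCL2, the gene lists and the tests were chosen with earlier results of these data known. The text names CCL2 and all genes of the lists of CCR2 ligands and of CCL2 and related receptors. It also names up to 4 members of each other list past the threshold in fWBI white matter, and the 8 genes most like CCL2 by each measure. Named genes with values in other comparisons, and CPVL, SLAMF7, SELPLG, STAB1, LYVE1, MRC1 and CD3E, were chosen after their values were seen. Not every gene the rule picks is reported here. Alternatives were DESeq2's size factors and test (1.42.0), other filters, other sets of libraries, a pan-neuronal covariate, a block for the animal number, and leaving out each animal in turn.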

Additional observations from a re-analysis of the deposited data

Results flagged for a closer look

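Single libraries stood apart from the other 4 of their group in 4 of 53 gene and group combinations checked, and chance gives about 1 in 20. CCL8 was at 20.6 CPM in the white matter of fWBI animal 1 and at 5.93 CPM in the hippocampus of fWBI animal 2. CXCL16 was at 3.30 CPM in the prefrontal cortex of fWBI animal 3. LYZ was at 7.02 CPM in the hippocampus of control animal 2, the animal with the highest CCL2 of that group. No CCL2 library stood apart in this way in groups with a mean of at least 1 CPM.

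The effect of fWBI differed between regions in edgeR's test of the difference for the following genes, among others named above. In white matter against prefrontal cortex the log2 fold change was larger by 1.22 for CXCL16, 2.79 for LYZ, 1.49 for CYBB (1.485 unrounded), 2.44 for GPX1 and 3.10 for CD68. In white matter against hippocampus it was larger by 1.91 for CCRL2 (1.905 unrounded), 1.78 for CXCR4, 2.40 for LYZ, 1.54 for CYBB, 2.38 for GPX1 and 2.72 for CD68.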

How the results depend on the processing

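The log2 fold change of CCL2 kept its sign in all 128 refits, and 127 moved it by less than the SD of log2 CPM within groups. That SD was 0.90 in fWBI and 1.18 in control hippocampus, so sizeable moves stayed under it. The region differences were set against the white matter SD alone. Most refits left out only 1 library or animal, which moves a group mean by little beside that SD. This count is thus no test of steadiness. Leaving out 1 library, it ranged from 4.77 to 5.09 in fWBI and 1.63 to 1.91 in TBI white matter, 1.35 to 2.38 in fWBI and 0.36 to 1.40 in TBI hippocampus, and 1.47 to 2.43 in fWBI and 0.20 to 1.06 in TBI prefrontal cortex. The difference from prefrontal cortex ranged from 2.60 to 3.26 and that from hippocampus from 2.74 to 3.63, in fits chosen after seeing the data. The group levels moved within 1 SD under other scalings. A minimum mean count of 10 gave no value for CCL2 in prefrontal cortex.

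Counts of genes called moved more. In white matter, fWBI gave 1639 with only the 2 groups, 1674 without control libraries 1 and 3, and 4062 with all 45 libraries. The counts with all 45 are from a fit by group with no term for the animal. TBI gave 733 with DESeq2's test, 1738 with all 45, 1 with the pan-neuronal covariate, and 0 with only the 2 groups or without control libraries 1 and 3. In hippocampus, fWBI gave 277 with DESeq2's test and 72 with 2 groups; TBI gave 63 with DESeq2's test and 1 without the filter. In prefrontal cortex, fWBI gave 466 with DESeq2's test; TBI gave 254 with it, 1 without the filter and 11 with all 45. Without control animals 1 and 3, the region differences numbered 956 against prefrontal cortex and 853 against hippocampus. Without 1 animal, counts ranged from 1747 to 3038 in fWBI white matter, 0 to 25 in TBI white matter, 70 to 264 in fWBI and 0 to 3 in TBI hippocampus, 73 to 218 in fWBI and 0 to 23 in TBI prefrontal cortex, 1014 to 2145 for the difference from prefrontal cortex and 837 to 1986 for that from hippocampus.

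With the animal number as a replicate block, CCL2 was at 4.96 and 1.80 in fWBI and TBI white matter, and genes called numbered 1975 in fWBI and 0 in TBI white matter, 71 in fWBI hippocampus, and 321 in fWBI and 81 in TBI prefrontal cortex. Numbers do not pair animals of different groups (median r = -0.02, 6 of 30 pairs above 0.1). The block ended the calls of CCL8 (2.88, adjusted p = 0.0851) and RELB (0.99, adjusted p = 0.0525) in fWBI white matter, of CCL8 and CXCL10 in fWBI hippocampus (adjusted p = 0.0592 and 0.0689) and of GBP3 and GPX1 in TBI white matter (0.0912 and 0.0535). Without the animal block, the region differences of CCL2 were 3.09 and 3.33.

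In fWBI white matter, where neither was called, PBX2 turned to -0.010 and GALNT1 to -0.024 without control libraries 1 and 3, and PBX2 to -0.029 with the pan-neuronal covariate. The sign also turned for region differences that were not called: CCL8 against hippocampus was -0.31 without control animals 1 and 3. Without 1 animal, CCL8 ranged from -0.15 to 1.47 against hippocampus and from -0.11 to 1.06 against prefrontal cortex, and CXCL10 from -0.080 to 0.72 against hippocampus. Of the 8 genes most like CCL2, Spearman's rho kept 3 over all libraries and 5 within groups, and a prior count of 0.5 kept 3 in each. The causes were not tested.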
